A study of Mus musculus with 12 samples.

Results

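Transcripts of the unfolded protein response and of the integrated stress response were followed in cultured mouse pancreatic cancer cells that carry or lack mutant p53. The set held 37 genes picked for their known function, with earlier results of these data known. It comprised 18 of a chaperone and degradation arm, 5 sensors and transducers of stress, and 14 of an arm around the transcription factor ATF4. A gene was included where the array annotation gave a probe set its symbol alone. All 37 were measured, by 86 probe sets, among 18193 genes on the arrays.

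RNA was taken from 4 groups of cells grown in serum-containing medium, with 3 arrays per group. The mt-CCs are primary cancer cells from tumors of Pdx1-Cre, LSL-K-rasG12D/+, LSL-Trp53R172H/+ mice, in which the pancreas-directed Cre switches on oncogenic K-ras and a gain-of-function p53. The fl-CCs come from Pdx1-Cre, LSL-K-rasG12D/+, LSL-Trp53fl/+ tumors and are labelled p53 null. The cells called R175H are p53-null cells that received human mutant p53 (R175H, the human counterpart of mouse R172H), and EV cells received the empty vector PCB6+1. R175H and EV cultures were kept in 0.6 mg/ml of the selection drug G418, and mt-CCs and fl-CCs were not. All 4 groups thus share the K-ras allele, and R175H and EV share the transfection and the drug. Each condition is a single cell line, so p-values measure the spread between cultures and not between tumors or transfections. Trp53 itself was not analysed here, because the annotation gives it no probe set of its own.

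Cells that load their endoplasmic reticulum (ER) with more secretory protein than they can fold answer through sensors in its membrane. IRE1 (encoded by Ern1) splices the Xbp1 transcript, ATF6 is cut to release a transcription factor, and PERK (Eif2ak3) phosphorylates the initiation factor eIF2. XBP1 and ATF6 induce chaperones, foldases and the machinery that retrieves misfolded proteins for degradation (ER-associated degradation, ERAD). Phosphorylated eIF2, which is also made by the amino acid sensor GCN2 (Eif2ak4), slows protein synthesis in general but raises translation of ATF4, which then induces genes of amino acid supply and of stress-linked cell death. Secretory tissues such as the pancreas depend strongly on the first of these arms.

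These arms are known to be read by different DNA elements, and the promoters of the member genes were searched for them on both strands. The window ran from 250 bases before to 50 bases after the start of each gene (RefSeq, assembly GRCm38.p6), and 33 of the 37 members had one. The ER stress element (ERSE), to which ATF6 binds together with NF-Y, was searched as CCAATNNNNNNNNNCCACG. It stood in 8 of 16 promoters of the chaperone and ERAD arm (50%), in 0 of 4 of the sensors, in 0 of 13 of the ATF4 arm, and in 0.119% of all 32851 windows. These are all 9 matches, each read in the direction of the element, with the element in capitals and 5 flanking bases on each side.
Hspa5, chr2:34772020-34772048, plus strand: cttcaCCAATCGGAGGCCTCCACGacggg
Hsp90b1, chr10:86705633-86705661, minus strand: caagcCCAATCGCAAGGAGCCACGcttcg
Hsp90b1, chr10:86705528-86705556, plus strand: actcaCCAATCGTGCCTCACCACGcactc
Calr, chr8:84847070-84847098, plus strand: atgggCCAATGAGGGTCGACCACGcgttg
Canx, chr11:50325795-50325823, minus strand: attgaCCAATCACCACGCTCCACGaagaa
Pdia6, chr12:17266486-17266514, plus strand: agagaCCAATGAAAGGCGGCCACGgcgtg
Dnajc3, chr14:118937822-118937850, plus strand: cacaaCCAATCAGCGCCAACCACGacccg
Creld2, chr15:88819515-88819543, minus strand: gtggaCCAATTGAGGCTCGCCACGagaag
Syvn1, chr19:6046527-6046555, plus strand: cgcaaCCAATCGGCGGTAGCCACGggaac

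The element bound by ATF4 with a C/EBP partner (CARE) was searched as TGATGNAA. It stood in 4 of 13 promoters of the ATF4 arm (30.8%), in 1 of 16 of the chaperone and ERAD arm (6.25%), and in 3.97% of all windows. The matches are shown in the same way, with 11 flanking bases on each side.
Trib3, chr2:152344028-152344057, plus strand: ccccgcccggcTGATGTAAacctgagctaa
Nupr1, chr7:126625562-126625591, plus strand: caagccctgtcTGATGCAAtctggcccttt
Chac1, chr2:119351038-119351067, minus strand: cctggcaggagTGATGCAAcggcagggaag
Asns, chr6:7693214-7693243, minus strand: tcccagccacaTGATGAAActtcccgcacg
Herpud1, chr8:94386306-94386335, minus strand: ggggtgcgggcTGATGCAAcccgccgtggt
The XBP1 element TGACGTGG, whose reverse complement begins with the last 5 letters of ERSE, stood in none of the 33 members and in 0.676% of all windows. Such a match describes letters in a window and not a bound site, and the windows hold no distal elements.

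To show an element in its setting, the 250 bases before the start of Hspa5 (chr2:34771840-34772089, plus strand) and of Asns (chr6:7693210-7693459, minus strand) are printed with the element in capitals. The first is the promoter of the central ER chaperone BiP and the second that of asparagine synthetase, a classical amino acid response gene.
Hspa5: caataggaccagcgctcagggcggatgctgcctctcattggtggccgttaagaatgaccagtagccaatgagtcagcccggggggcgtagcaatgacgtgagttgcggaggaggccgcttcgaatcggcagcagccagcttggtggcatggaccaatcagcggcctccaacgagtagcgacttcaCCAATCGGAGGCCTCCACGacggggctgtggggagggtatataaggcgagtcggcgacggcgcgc
Asns: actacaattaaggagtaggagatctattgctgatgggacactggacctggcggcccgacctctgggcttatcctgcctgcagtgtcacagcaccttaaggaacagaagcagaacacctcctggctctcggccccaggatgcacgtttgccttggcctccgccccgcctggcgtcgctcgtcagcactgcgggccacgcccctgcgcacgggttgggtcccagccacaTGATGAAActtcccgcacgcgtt

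Values are log2 RMA values, so a difference of 1 is a doubling. A gene was called where limma's Benjamini-Hochberg adjusted p over all probe sets was 0.05 or less, with no limit on the size of the change. The median of every array was 5.59, and the correlation within a group was 0.994 to 0.996. Values under 5 were taken as near background, and every member lay above that level in all groups. The number of arrays limits the precision. The array fl-CCs replicate 1 had a low fitted array weight (0.556), as had mt-CCs replicate 1 (0.549), and fl-CCs replicate 1 stood above its group in several amino acid genes, so results that rest on it are also given without it. Markers of cell type moved too. Of 10 epithelial markers, 0 were higher and 8 lower in mt-CCs than in fl-CCs (log2 of their summed level 14.99 to 15.08 in mt-CCs and 15.61 to 15.69 in fl-CCs), and Cldn4 and Esrp1 lay near background on every array. Of 12 fibroblast markers, 6 were higher and 1 lower (10.61 to 10.66 in mt-CCs and 8.08 to 8.46 in fl-CCs), with Lum, Fap, Pdpn, Postn and Thy1 near background on every array. Between R175H and EV, 2 epithelial markers were higher and 3 lower, and 1 fibroblast marker was higher. Of 8 leukocyte markers, 6 lay near background on every array, and Cd68 was higher in mt-CCs by 1.91 ± 0.12 (log2 of the summed level 8.36 to 8.39 in mt-CCs and 7.46 to 7.63 in fl-CCs). Of 6 acinar markers, Prss2, Ptf1a and Bhlha15 lay near background on every array, and Prss2 was still called higher in mt-CCs (0.63 ± 0.16). The part of these markers in the differences below was not tested, and in bulk RNA fewer cells of a kind and less RNA per cell cannot be told apart.

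The first comparison asked how mt-CCs differ from fl-CCs in these arms, and the second how R175H cells differ from EV cells. ER chaperones were higher in mt-CCs, with 7 of 14 called higher and 0 lower, whereas the ATF4 arm was split, with 3 of 14 genes higher and 4 lower. In R175H cells the ATF4 arm was lower than in EV cells (0 higher and 7 lower of 14), and 5 of 18 genes of the chaperone and ERAD arm were higher and 0 lower. Among the 0 counts, 1 gene (Canx, lower in R175H cells) had an unadjusted p under 0.05 in limma. Over all genes, 18.3% were called higher and 17.7% lower in mt-CCs against fl-CCs, and 13% higher and 12.1% lower in R175H against EV cells. Of these 18193 genes, 4793 lay near background on every array, against 0 of the members. Shares among genes as bright as the members were not computed. The ER chaperones called higher in mt-CCs (50%) and the ATF4 arm called lower in R175H cells (50%) stood above these all-gene shares. The ATF4 arm in mt-CCs (21.4% higher and 28.6% lower) lay nearer to them. So did all 37 members in R175H cells (16.2% higher and 21.6% lower). Since the members were chosen with earlier results of these data known, a share above that of all genes is no independent test. With single arrays left out, 5 to 7 ER chaperones were higher in mt-CCs, but the 7 lower calls of the ATF4 arm in R175H cells came to 3 without R175H replicate 1 and to 4 without R175H replicate 3 or any 1 EV array. The 4 lower calls of that arm in mt-CCs came to 1 without mt-CCs replicate 1, mt-CCs replicate 3 or fl-CCs replicate 2, and the 5 higher calls of the chaperone and ERAD arm in R175H cells to 3 without R175H replicate 1 or EV replicate 2. The median difference of the ER chaperones between mt-CCs and fl-CCs was 0.27, that of the ATF4 arm between R175H and EV cells -0.39, and that of all genes -0.01 in both comparisons.

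**Figure D1:**
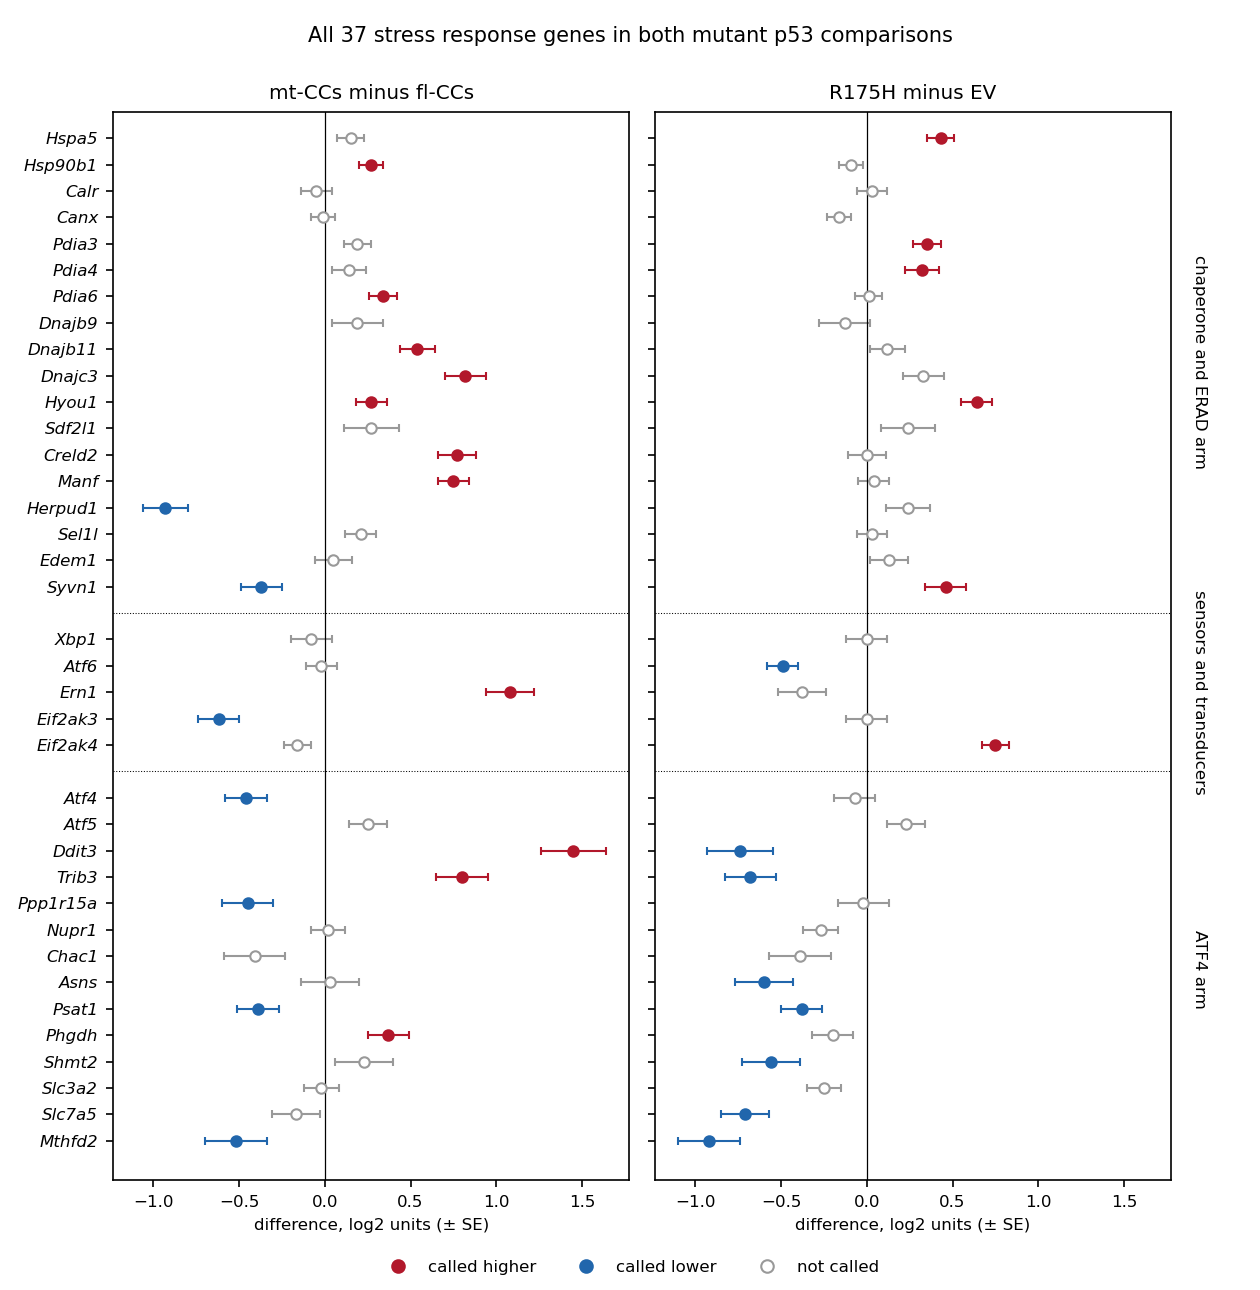
Difference (log2 units, ± SE, n = 3 arrays per group) of all 37 members in mt-CCs minus fl-CCs (left) and R175H minus EV (right), with filled points where the gene was called. The called ER chaperones lie right of 0 in both panels, and the called genes of the ATF4 arm lie on both sides on the left, from -0.52 to 1.45, and only below 0 on the right, from -0.92 to -0.38.

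Among the stress sensors, Ern1 and Eif2ak3 moved apart between mt-CCs and fl-CCs. Ern1, which encodes the kinase and RNase IRE1, had log2 values of 9.39, 9.58 and 9.47 in mt-CCs, against 8.09, 8.71 and 8.41 in fl-CCs. The groups did not overlap, and the difference was 1.08 ± 0.14 (SE over 3 arrays a group, adjusted p = 9.79e-05), a 2.11-fold rise. Eif2ak3, the gene of PERK, had 8.56, 8.14 and 8.34 in mt-CCs, against 8.90, 8.94 and 9.06 in fl-CCs. All mt-CC arrays were the lower ones, and the gene fell by 0.62 (SE 0.12, adjusted p = 0.00158). Both calls held with any 1 of these 6 arrays left out. Here and below, the arrays left out in turn are those of the groups compared. EV cells, which received no mutant p53, differed from fl-CCs in the same directions (Ern1 by 0.59 and Eif2ak3 by -0.49). Both of those calls were lost without some single arrays.

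The other sensors did not pass the test between mt-CCs and fl-CCs. Atf6 had 10.20, 10.19 and 10.21 in mt-CCs, against 10.26, 10.24 and 10.18 in fl-CCs, and Xbp1, the transcription factor made by IRE1 splicing, had 9.59, 9.53 and 9.48 in mt-CCs, against 9.37, 9.83 and 9.65 in fl-CCs. The groups overlapped in both genes, and spliced Xbp1 was not measured separately. Eif2ak4, the gene of GCN2, had 8.34, 8.39 and 8.30 in mt-CCs, against 8.53, 8.52 and 8.46 in fl-CCs, all mt-CC arrays being slightly lower (difference -0.16 ± 0.08, adjusted p = 0.154).

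With p53 R175H the sensors that passed were other ones. Eif2ak4 had 8.73, 8.88 and 8.82 in R175H cells, against 8.03, 8.01 and 8.13 in EV cells, a rise of 0.75 ± 0.08 (adjusted p = 3.53e-05) with the groups well apart. Atf6 had 10.17, 10.08 and 10.01 in R175H cells, against 10.67, 10.66 and 10.40 in EV cells, and fell by 0.49 (SE 0.09, adjusted p = 0.00221). In both genes the R175H and EV arrays did not overlap, and both calls held without any single array. Ern1 had 8.80, 8.52 and 8.52 in R175H cells, against 8.88, 9.08 and 9.03 in EV cells, a difference of -0.38 ± 0.14 that did not pass (adjusted p = 0.0858). Eif2ak3 had 8.51, 8.29 and 8.62 in R175H cells and 8.41, 8.57 and 8.46 in EV cells, and Xbp1 had 9.72, 9.90 and 9.87 in R175H cells and 9.77, 9.76 and 9.97 in EV cells. For Eif2ak3 and Xbp1 the means of R175H and EV cells differed by 0.00, and their arrays overlapped.

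The ER chaperone genes that rose most in mt-CCs encode a co-chaperone and small ER residents. Dnajc3 (p58IPK), a co-chaperone of BiP that also restrains PERK, had log2 values of 10.55, 10.29 and 10.43 in mt-CCs, against 9.83, 9.43 and 9.54 in fl-CCs. Its arrays did not overlap, and its rise, 0.82 ± 0.12 (SE, adjusted p = 0.000149), was the largest of the arm. Creld2, an ER-resident protein induced by ER stress, had 11.85, 11.48 and 11.63 in mt-CCs, against 11.04, 10.85 and 10.77 in fl-CCs. Manf, an ER protein secreted under stress, had 12.23, 12.10 and 11.98 in mt-CCs, against 11.39, 11.37 and 11.31 in fl-CCs. Both were higher on all mt-CC arrays, by 0.77 ± 0.11 (adjusted p = 0.000131) and 0.75 ± 0.09 (adjusted p = 2.91e-05).

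Smaller rises in mt-CCs were found for Dnajb11 (0.54 ± 0.10), another co-chaperone of BiP, for the disulfide isomerase gene Pdia6 (0.34 ± 0.08), for Hsp90b1 (0.27 ± 0.07), which encodes GRP94, and for Hyou1 (0.27 ± 0.09), which encodes the large HSP70-like chaperone GRP170. Their adjusted p ran between 0.000992 for Dnajb11 and 0.0479 for Hyou1, and in none of them did the arrays of the groups overlap. The call of Hyou1 was lost with any of 5 of the 6 arrays left out, all except mt-CCs replicate 1 (adjusted p up to 0.161), and that of Hsp90b1 without fl-CCs replicate 3 (adjusted p = 0.0512). The other calls of chaperones held throughout. Not called were Hspa5 (BiP, 0.15 ± 0.08), the lectin chaperones Calr and Canx (-0.05 and -0.01), the disulfide isomerases Pdia3 and Pdia4 (0.19 and 0.14), the BiP co-chaperone Dnajb9 (0.19) and Sdf2l1 (0.27). Sdf2l1, a partner of the DnaJ co-chaperones, passed without fl-CCs replicate 1 (0.46 ± 0.13, adjusted p = 0.0232).

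In R175H cells the HSP70-type chaperones led the rises. Hyou1 had 11.13, 10.84 and 10.86 in R175H cells, against 10.31, 10.30 and 10.31 in EV cells. Hspa5 had 12.97, 12.98 and 12.97 in R175H cells, against 12.58, 12.50 and 12.54 in EV cells. Both were higher on every R175H array, Hyou1 by 0.64 ± 0.09 (adjusted p = 0.000501, a 1.55-fold rise) and Hspa5 by 0.43 ± 0.08 (adjusted p = 0.00247). Pdia3 rose by 0.35 ± 0.08 and Pdia4 by 0.32 ± 0.10 (adjusted p = 0.00601 and 0.0464), and the call of Pdia4 was lost with any array but EV replicate 1 left out (adjusted p up to 0.163). Dnajc3 differed by 0.33 ± 0.12 and did not pass (adjusted p = 0.0625). Creld2 and Manf, which stood out in mt-CCs, had differences of 0.00 and 0.04 in R175H cells, and the other 7 chaperones ranged from -0.16 for Canx to 0.24 for Sdf2l1 without a call.

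Only Hyou1 was called higher in both comparisons. Of the 8 genes of the arm with an ERSE in their window, 4 were higher, 1 lower and 3 not called for mt-CCs against fl-CCs, and of the 8 with a window and no ERSE, 1 was higher, 1 lower and 6 not called. Between R175H and EV cells, 2 were higher and 6 not called with the element, and the same numbers held without it. Over all genes, 18.3% were called higher and 17.7% lower in mt-CCs, and 13% and 12.1% in R175H cells. Hyou1 and Manf, both called higher in mt-CCs, had no window and stand in neither count. With so few genes, a link between the element and the calls was not tested.

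Of the 4 ERAD members, 2 were called lower and 0 higher in mt-CCs. Among 21 other measured ERAD genes, 5 were higher (23.8%) and 1 lower (4.76%) in mt-CCs (median difference 0.14). Over all genes, 18.3% were higher and 17.7% lower. Herpud1, a membrane protein that assembles the degradation complex, had log2 values of 8.52, 8.24 and 8.19 in mt-CCs, against 9.32, 9.33 and 9.10 in fl-CCs. It fell by 0.93 (SE 0.13, adjusted p = 0.000155), 1.91-fold, the largest absolute difference of the whole arm. Syvn1, which encodes the ubiquitin ligase HRD1 of this complex, had 8.79, 8.77 and 8.52 in mt-CCs, against 9.06, 9.08 and 9.05 in fl-CCs. It was lower on all mt-CC arrays by a smaller step (-0.37 ± 0.12, adjusted p = 0.0397), and the call was lost with any array but mt-CCs replicate 1 left out (adjusted p up to 0.147). In R175H cells Syvn1 had 9.53, 9.24 and 9.08, against 8.69, 8.79 and 8.96 in EV cells. There it rose by 0.46 ± 0.12 (adjusted p = 0.0185), a call lost without R175H replicate 1, EV replicate 1 or EV replicate 2 (adjusted p up to 0.075). Its other probe set, dimmer but more specific, gave -0.35 ± 0.17 in mt-CCs (adjusted p = 0.164) and 0.23 ± 0.17 in R175H cells (adjusted p = 0.43), so that neither call of Syvn1 was made there. Herpud1 had 9.0, 9.26 and 9.49 in R175H cells, against 9.07, 9.03 and 8.93 in EV cells, with overlapping arrays and no call (adjusted p = 0.258). Sel1l, the scaffold of HRD1, and Edem1, which hands trimmed glycoproteins to it, were not called in either comparison (0.21 and 0.05 for mt-CCs, 0.03 and 0.13 for R175H cells).

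**Figure D2:**
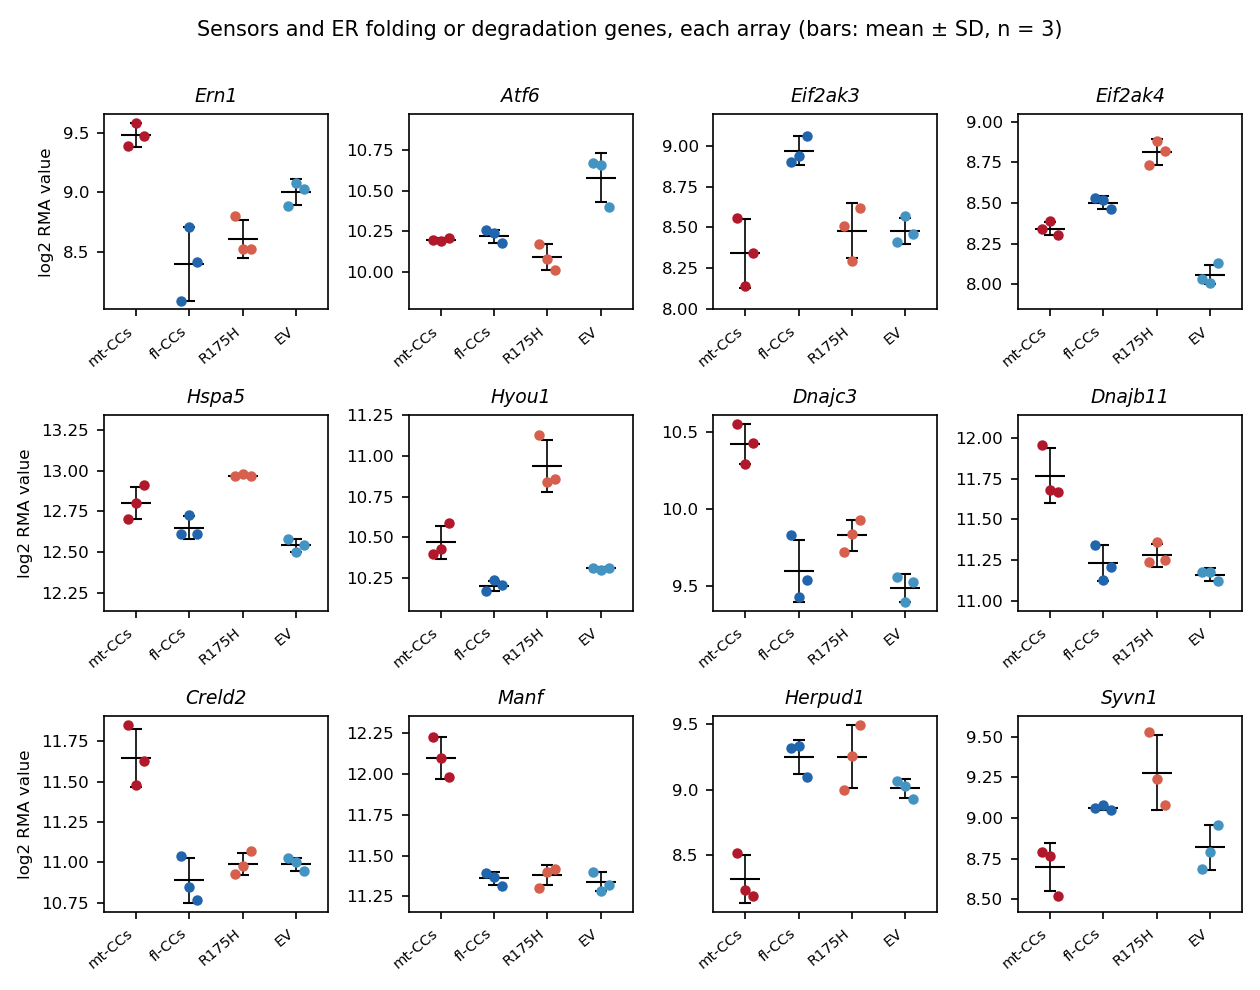
Log2 RMA value of 4 sensors and 8 genes of the chaperone and ERAD arm on each array (points) with mean ± SD of 3 arrays (bars), by group, each panel on its own axis. Creld2 and Manf are set apart in mt-CCs alone, by 0.77 and 0.75 above fl-CCs, while Hspa5 and Hyou1 are highest in R175H cells.

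Of the 6 transcription factors and feedback genes of the ATF4 arm, 2 were called higher and 2 lower in mt-CCs, and 0 higher and 2 lower in R175H cells. Over all genes, 18.3% were higher and 17.7% lower in mt-CCs, and 13% and 12.1% in R175H cells. Ddit3 and Trib3 were called in opposite directions with endogenous and with transfected mutant p53, and the other 4 were not. Ddit3, which encodes the pro-apoptotic factor CHOP, had log2 values of 10.21, 10.16 and 10.25 in mt-CCs, against 8.35, 9.30 and 8.61 in fl-CCs. Its rise, 1.45 ± 0.19 (SE, adjusted p = 6.68e-05) or 2.74-fold, was the largest of all 37 members, the fl-CC arrays spread widely, and the call held without any single array. In R175H cells Ddit3 had 8.07, 8.31 and 8.29, against 8.96, 9.02 and 8.91 in EV cells. Here all R175H arrays were lower, by 0.74 on average (SE 0.19, adjusted p = 0.014), a call lost without R175H replicate 1 (adjusted p = 0.0559).

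Trib3, a pseudokinase induced by ATF4 and CHOP that dampens ATF4, showed the same reversal. It had 10.61, 10.62 and 10.45 in mt-CCs, against 9.68, 10.02 and 9.58 in fl-CCs, a rise of 0.80 ± 0.15 (adjusted p = 0.00105). It had 9.10, 8.54 and 8.77 in R175H cells, against 9.45, 9.46 and 9.55 in EV cells, and fell by 0.68 (SE 0.15, adjusted p = 0.0056). The arrays of the compared groups did not overlap in either case, and both calls held without any single array.

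The transcript of Atf4 itself could not be given one direction. At its brightest probe set, of a kind that can hybridize to similar transcripts, Atf4 had 10.99, 11.33 and 11.31 in mt-CCs, against 11.60, 11.83 and 11.59 in fl-CCs (difference -0.46 ± 0.12, adjusted p = 0.0127), a call lost without mt-CCs replicate 1 or fl-CCs replicate 2 (adjusted p up to 0.0577). On the same probe set it had 11.87, 11.66 and 11.53 in R175H cells, against 11.64, 11.82 and 11.81 in EV cells, with overlap. A more specific probe set gave 0.02 ± 0.09 (adjusted p = 0.912) for mt-CCs against fl-CCs and -0.62 ± 0.09 (adjusted p = 0.000303) for R175H against EV cells. These probe sets disagreed in both comparisons. Of the 4 lower calls of the arm in mt-CCs (Atf4, Ppp1r15a, Psat1 and Mthfd2), 3 were not made at the other probe set of the gene, and Ppp1r15a has only 1 probe set.

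Of the remaining regulators, Ppp1r15a (GADD34), which directs the phosphatase that undoes eIF2 phosphorylation, was called lower in mt-CCs (-0.45 ± 0.15, adjusted p = 0.0392) with overlapping arrays, and the call was lost without mt-CCs replicate 2 or 3 or fl-CCs replicate 2 or 3 (adjusted p up to 0.149). It differed by -0.02 in R175H cells. Atf5, a further stress-translated factor, differed by 0.25 and 0.23 in mt-CCs and R175H cells, and Nupr1, a small chromatin protein induced by stress, by 0.02 and -0.27, all without a call, though Atf5 passed as higher in mt-CCs without mt-CCs replicate 3 (0.34 ± 0.11, adjusted p = 0.0427).

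The amino acid and one-carbon genes of the arm were lower in R175H cells throughout, 5 of 8 by call and the other 3 by value only. Over all genes, 12.1% were called lower. Mthfd2, the mitochondrial folate enzyme, had 8.91, 8.71 and 8.71 in R175H cells, against 9.72, 9.71 and 9.64 in EV cells. Slc7a5, the light chain of the leucine transporter LAT1, had 8.68, 8.55 and 8.70 in R175H cells, against 9.26, 9.41 and 9.39 in EV cells. The gaps were far wider than the spread within the groups, and Mthfd2 fell by 0.92 (SE 0.18, n = 3 arrays per group, adjusted p = 0.00302) and Slc7a5 by 0.71 (SE 0.14, adjusted p = 0.00317). Both calls held without any single array.

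Asns, which makes asparagine, fell by 0.60, Shmt2, the mitochondrial serine hydroxymethyltransferase, by 0.56, and Psat1, an enzyme of serine synthesis, by 0.38 (adjusted p = 0.0262, 0.0312 and 0.0425). Their R175H and EV arrays did not overlap. Their calls lie close to the threshold: that of Asns was lost with each of the 6 arrays left out in turn (adjusted p from 0.0529 to 0.0873), that of Shmt2 with all but R175H replicate 2 (up to 0.107) and that of Psat1 with all but R175H replicate 2 (up to 0.136), while the differences stayed within -0.64 and -0.34. Slc3a2, the heavy chain of LAT1, Phgdh, the first enzyme of serine synthesis, and Chac1, which degrades glutathione, had differences of -0.25, -0.20 and -0.39 and were not called.

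For mt-CCs against fl-CCs these metabolic genes had no common direction. Mthfd2 had 9.35, 9.64 and 9.15 in mt-CCs, against 10.33, 9.82 and 9.55 in fl-CCs, and was called lower (-0.52 ± 0.18, adjusted p = 0.0415) although the arrays overlap. Psat1 was lower by 0.39 (SE 0.12, adjusted p = 0.0266) and Phgdh higher by 0.37 ± 0.12 (adjusted p = 0.0372). Many of these calls lay near the threshold and were lost with single arrays left out. Without fl-CCs replicate 1, Mthfd2 was at -0.31 (adjusted p = 0.148), Psat1 at -0.26 (adjusted p = 0.0938) and Shmt2 at 0.45 ± 0.12 (adjusted p = 0.0185, against 0.23 and no call with it), and the arm had 2 lower calls in place of 4. The call of Mthfd2 was also lost without mt-CCs replicate 1 or 3 or fl-CCs replicate 2, that of Psat1 without mt-CCs replicate 1 or 3, and that of Phgdh without mt-CCs replicate 1 or 2 or fl-CCs replicate 2 or 3 (adjusted p up to 0.151). That fl-CC array read 11.61 for Asns, against 11.05 and 10.91 on the other fl-CC arrays. Asns, Slc3a2, Slc7a5 and Chac1 differed by 0.03, -0.02, -0.17 and -0.41 without a call, and Chac1 passed as lower without mt-CCs replicate 2 (-0.60 ± 0.16, adjusted p = 0.0149). At their other probe sets Psat1 differed by -0.14 (adjusted p = 0.562) and Mthfd2 by -0.17 ± 0.23 (adjusted p = 0.654) in mt-CCs against fl-CCs, while both were called lower there in R175H cells (-0.65 and -1.0). At the brightest probe sets Mthfd2 and Psat1 were the only members called lower in both comparisons. For each the call in mt-CCs was not made at the other probe set, nor without the arrays named here. The differences shrank without fl-CCs replicate 1, and less so without mt-CCs replicate 3 (-0.41 for Mthfd2 and -0.35 for Psat1). Without mt-CCs replicate 1 they stayed at -0.51 and -0.38, and without fl-CCs replicate 2 Mthfd2 was at -0.56, so there only the call was lost.

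**Figure D3:**
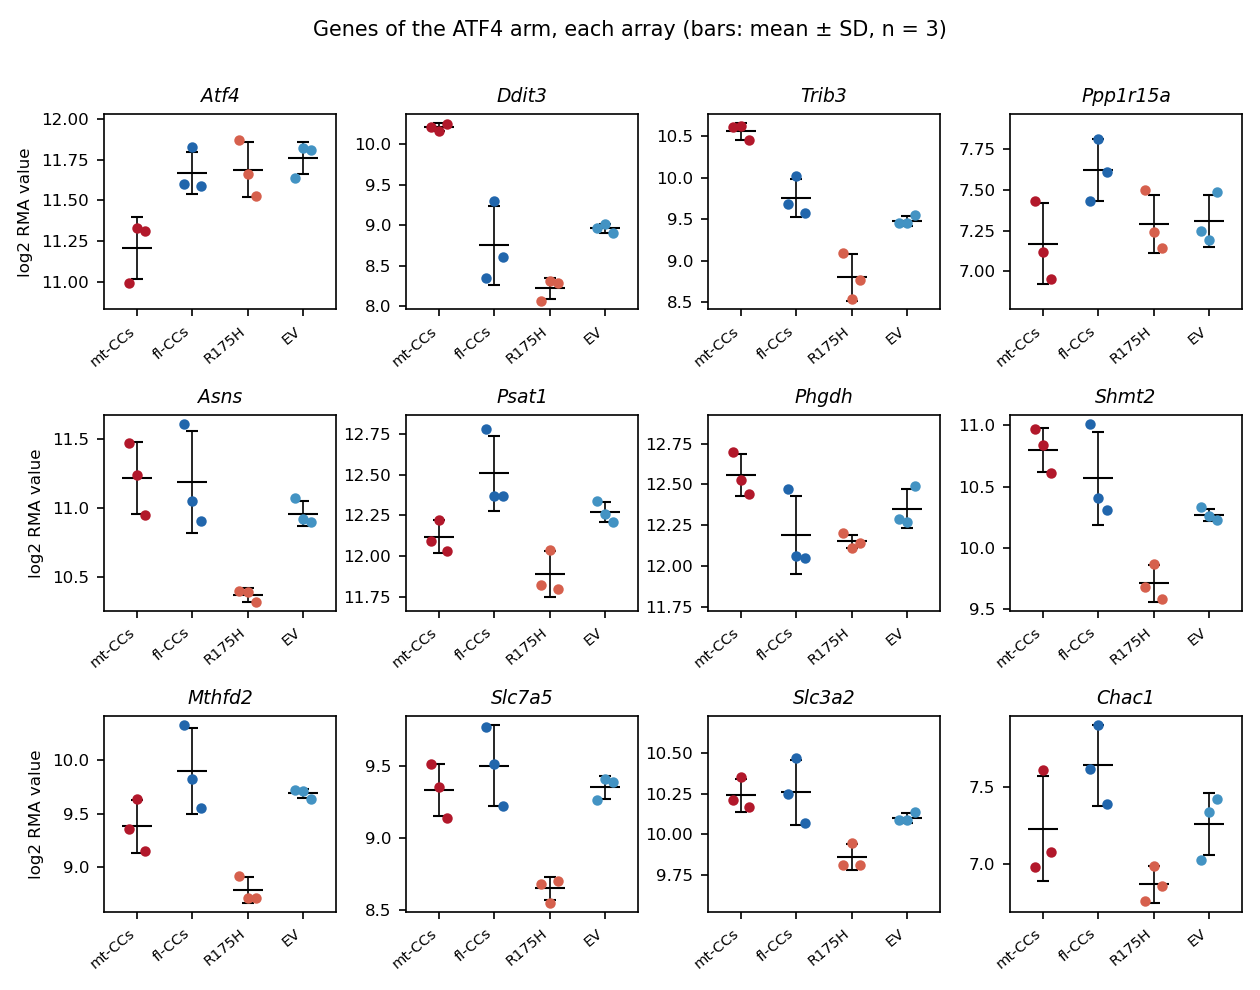
Log2 RMA value of 12 genes of the ATF4 arm on each array (points) with mean ± SD of 3 arrays (bars), by group, each panel on its own axis. Ddit3 and Trib3 are highest in mt-CCs and lowest in R175H cells, whereas Asns, Shmt2, Slc7a5 and Mthfd2 are low in R175H cells and close between mt-CCs and fl-CCs except for Mthfd2 (-0.52).

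EV cells, with the vector and its drug, were also compared with fl-CCs, a comparison that shares arrays with both others. Vector, drug and other differences between these single lines cannot be told apart in it. Over all genes 7.84% were higher and 7.24% lower, and of the 37 members 4 were higher and 2 lower. Dnajb9, a co-chaperone of BiP that restrains IRE1, had the largest rise (0.75 ± 0.15, SE, n = 3 arrays per group, adjusted p = 0.00555), and Pdia6 rose by 0.35. The other 4 calls were sensors: Ern1 was higher by 0.59 ± 0.14 and Atf6 by 0.35 ± 0.09, and Eif2ak4 was lower by 0.45 and Eif2ak3 by 0.49 on the log2 scale. The calls of Dnajb9 and Eif2ak4 held without any single array. That of Pdia6 was lost without fl-CCs replicate 2 or EV replicate 2 or 3, that of Atf6 without fl-CCs replicate 2 or 3 or EV replicate 1 or 2, that of Ern1 without fl-CCs replicate 1 or 3 or EV replicate 2 or 3, and that of Eif2ak3 without fl-CCs replicate 3 or EV replicate 1 or 3 (adjusted p up to 0.0934). Of the ATF4 arm, 0 of 14 genes were called, with differences from -0.37 for Chac1 to 0.21 for Ddit3. At an unadjusted p under 0.05 the count was also 0 in limma, the lowest p being 0.0561 for Chac1. Without fl-CCs replicate 2, however, Ddit3 was called higher in EV cells (0.48 ± 0.11, adjusted p = 0.0227), and the number of members called was 3 without fl-CCs replicate 3, EV replicate 2 or EV replicate 3, in place of 6. For Eif2ak4 and Atf6, whose EV values lay away from the fl-CC values, R175H cells stood at means of 8.81 and 10.09, against 8.06 and 10.58 in EV cells and 8.50 and 10.22 in fl-CCs. For Eif2ak3 the fl-CC mean stood apart at 8.97, against 8.34 in mt-CCs and 8.48 in both R175H and EV cells. So did that of Pdia6 at 10.3, against 10.64 in mt-CCs, 10.66 in R175H and 10.65 in EV cells. For Ern1 the means were 8.4 in fl-CCs, 8.61 in R175H cells, 9 in EV cells and 9.48 in mt-CCs.

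The difference between these comparisons was tested directly, as (mt-CCs minus fl-CCs) minus (R175H minus EV), from arrays that they do not share. Each is between single cell lines, so an effect of mutant p53 cannot be told apart from a difference between lines. By this test 15 of 37 members differed, 11 in the positive (29.7%) and 4 in the negative direction (10.8%). Over all genes the shares were 16.1% and 15.9%, with 4793 of 18193 genes near background on every array. The negative share of the members rests on 4 genes, and its distance from that of all genes was not tested. The widest gaps were those of Ddit3 (2.19 ± 0.26, SE, adjusted p = 5.37e-05), Trib3 (1.48 ± 0.21) and Ern1 (1.46 ± 0.20), followed in the other direction by Herpud1 (-1.17 ± 0.19), Eif2ak4 (-0.91 ± 0.11) and Syvn1 (-0.83 ± 0.17). Among chaperones the comparisons differed for Creld2 and Manf (0.77 ± 0.15 and 0.71 ± 0.12) and less firmly for Hsp90b1 (0.36), Dnajb11 (0.42) and Dnajc3 (0.49). The call of Hsp90b1 was lost without fl-CCs replicate 3, EV replicate 1 or R175H replicate 1 (adjusted p up to 0.054). That of Dnajb11 was kept only without mt-CCs replicate 2 or 3, fl-CCs replicate 1 or R175H replicate 2, and that of Dnajc3 only without mt-CCs replicate 2, fl-CCs replicate 1, EV replicate 2 or R175H replicate 3 (otherwise up to 0.0961 and 0.108). For Hspa5 and Hyou1 the difference was -0.28 ± 0.11 and -0.37 ± 0.13 and did not pass (adjusted p = 0.0959 and 0.0616). In the ATF4 arm Shmt2 (0.79) and Phgdh (0.57) also differed, whereas Psat1 had -0.01 ± 0.17 (adjusted p = 0.978). Both calls were lost without mt-CCs replicate 1, fl-CCs replicate 2 or 3 or R175H replicate 3, that of Shmt2 also without EV or R175H replicate 1 and that of Phgdh without EV replicate 3 or R175H replicate 2 (adjusted p up to 0.0612 and 0.0691). Without fl-CCs replicate 1 the number rose to 19, with Asns (0.83 ± 0.18, adjusted p = 0.00619), Slc7a5 (0.67 ± 0.17), Mthfd2 (0.61 ± 0.19) and Pdia6 (0.38 ± 0.12) in addition. Without mt-CCs replicate 3 it was 17, with Asns (0.76), Slc7a5 (0.63) and Hyou1 (-0.42) among those called.

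Probe sets of a gene often differed in whether they were called. Of the 27 members with several probe sets, 14 were called at the brightest in mt-CCs against fl-CCs. At the other probe sets 3 of these were called the same way throughout, 4 in part and 7 not at all (Atf4, Ddit3, Hsp90b1, Mthfd2, Pdia6, Psat1 and Syvn1), and 5 members not called at the brightest were called at another (Atf6, Edem1, Pdia3, Sel1l and Xbp1). For R175H against EV, 13 were called, with 8 called the same way throughout, 1 in part and 4 not at all (Ddit3, Eif2ak4, Pdia4 and Syvn1), and 3 others were called at another probe set (Atf4, Canx and Ern1). No called member was called the other way at another probe set. The probe sets that were not called lay near background for Pdia6, Pdia4 and Eif2ak4 (means of 4.71, 3.30 and 3.72). Both probe sets of Herpud1 (-0.93 and -1.14), the 3 of Hyou1 (0.27, 0.65 and 0.70, the dimmer ones called more firmly) and 4 of the 5 of Dnajc3 (0.61 or more) were called in the same direction for mt-CCs against fl-CCs. The second probe set of Ddit3, much dimmer, gave 0.49 ± 0.30 and -0.51 ± 0.30 without a call, and the second of Trib3 was called higher and lower like the first (0.49 and -0.55). For Atf6 the brightest probe set gave -0.02 between mt-CCs and fl-CCs while the others gave 0.75 ± 0.09 (adjusted p = 5.03e-05) and 0.57 ± 0.09 (adjusted p = 0.000359), so that a rise of Atf6 in mt-CCs depends on the probe set read. The 3 agreed on lower Atf6 in R175H cells (-0.49, -0.46 and -0.44). A second probe set of Ern1 gave 1.46 ± 0.09 for mt-CCs and, unlike the first, passed as lower in R175H cells (-0.54 ± 0.09, adjusted p = 0.000996). For Xbp1, 1 of 4 probe sets was called lower in mt-CCs (-0.44 ± 0.15, adjusted p = 0.0369), and for Edem1 the dimmer of 2 was called higher (0.47 ± 0.08, adjusted p = 0.000878), as were 1 of 5 for Sel1l (0.47 ± 0.14, adjusted p = 0.0205) and the second of Pdia3 (0.56 ± 0.19, adjusted p = 0.0421). The dimmest probe set of Canx was called lower in R175H cells (-0.39 ± 0.09, adjusted p = 0.00902).

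Further genes of the ER folding and quality control system were read from a list of 89, of which 84 were measured. In mt-CCs 31 were higher (36.9%) and 9 lower (10.7%), with a median difference of 0.14. In R175H cells 19 were higher (22.6%) and 9 lower (10.7%), with a median of 0.05, beside all-gene medians of -0.01. Over all genes, 18.3% were higher and 17.7% lower in mt-CCs, and 13% and 12.1% in R175H cells. Among folding genes, 19 of 34 were higher (55.9%) and 3 lower (8.82%) in mt-CCs. In R175H cells 6 were higher and 6 lower (17.6% each), near the shares of all genes. The calcium-binding ER protein Rcn1 had 10.87, 11.19 and 11.26 in mt-CCs and lay near background in fl-CCs (3.95, 2.59 and 2.57), a difference of at least 6.11, counted down to the background level of 5. The prolyl isomerase gene Fkbp7 rose in both, by 1.90 ± 0.10 in mt-CCs and 0.94 ± 0.10 in R175H cells. Uggt1, the enzyme that returns unfolded glycoproteins to calnexin, rose by 1.37 ± 0.15 in mt-CCs (adjusted p = 1.47e-05). Lower in mt-CCs were the HSP90 co-factor Cdc37l1 (by 0.96), the thioredoxin-like Txndc12 (by 0.58) and Creb3l3, an ER-bound transcription factor (by 0.63). Creb3l3 lay little above the background level of 5 (5.07, 5.27 and 5.13 in mt-CCs, 5.75, 5.78 and 5.85 in fl-CCs). In R175H cells the translocon-associated Ssr4 rose by 0.74 ± 0.08, and Ero1a, the oxidase that recharges disulfide isomerases, fell by 1.12 (10.69, 10.22 and 10.25 in R175H cells, 11.43, 11.54 and 11.56 in EV cells), as did the ER-bound factor Creb3l4 by 1.34.

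The list of other integrated stress response genes held 73, of which 68 were measured. In R175H cells 5 were higher (7.35%) and 28 lower (41.2%), with a median difference of -0.26, beside 13% and 12.1% of all genes. In mt-CCs 19 were higher (27.9%) and 15 lower (22.1%), with a median of -0.01, beside 18.3% and 17.7%. Aminoacyl-tRNA synthetases, which load amino acids onto tRNAs and include many ATF4 targets, fell without exception among those called, with 0 of 19 higher and 9 lower in R175H cells (median difference -0.30). Tars averaged 10.38 ± 0.05 in R175H cells and 11.11 ± 0.05 in EV cells (SD, n = 3 each), and Lars 10.93 ± 0.15 and 11.55 ± 0.10, falls of 0.73 and 0.62 (adjusted p = 0.000516 and 0.00931). Kars, Farsa and Sars had small positive differences (0.13, 0.13 and 0.03) without a call. Between mt-CCs and fl-CCs, 3 synthetases were higher and 3 lower (15.8% each, near the 18.3% and 17.7% of all genes), and between EV and fl-CCs 0 of 19 were called, nor did any have an unadjusted p under 0.05 in limma.

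Single genes of this list moved much more than the members. The glutamine transporter gene Slc38a1 had 11.23, 11.10 and 11.08 in mt-CCs, against 6.70, 6.20 and 6.31 in fl-CCs, and 9.27, 9.14 and 9.33 in R175H cells, against 5.22, 4.66 and 4.55 in EV cells. It rose by 4.73 ± 0.17 on the log2 scale in mt-CCs. In R175H cells it rose by at least 4.25, counted down to the background level of 5, since the EV mean of 4.81 lay under that level. Stc2, a secreted glycoprotein induced by ER stress, moved as Ddit3 and Trib3 did and was higher in mt-CCs (11.13, 11.15 and 11.14, against 9.49, 9.23 and 9.29 in fl-CCs) and lower in R175H cells (6.02, 7.38 and 6.54, against 8.22, 8.42 and 8.34 in EV cells). In R175H cells Impact, an inhibitor of GCN2, rose by 2.58 ± 0.13, and Bcat1, a branched-chain aminotransferase, fell by 3.45. In mt-CCs Trib1, a relative of Trib3, rose by 1.36 ± 0.14, and Shmt1, the cytosolic counterpart of Shmt2, and the transporters Slc7a6 and Slc7a3 fell by 2.42, 1.67 and 1.36.

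**Figure D4:**
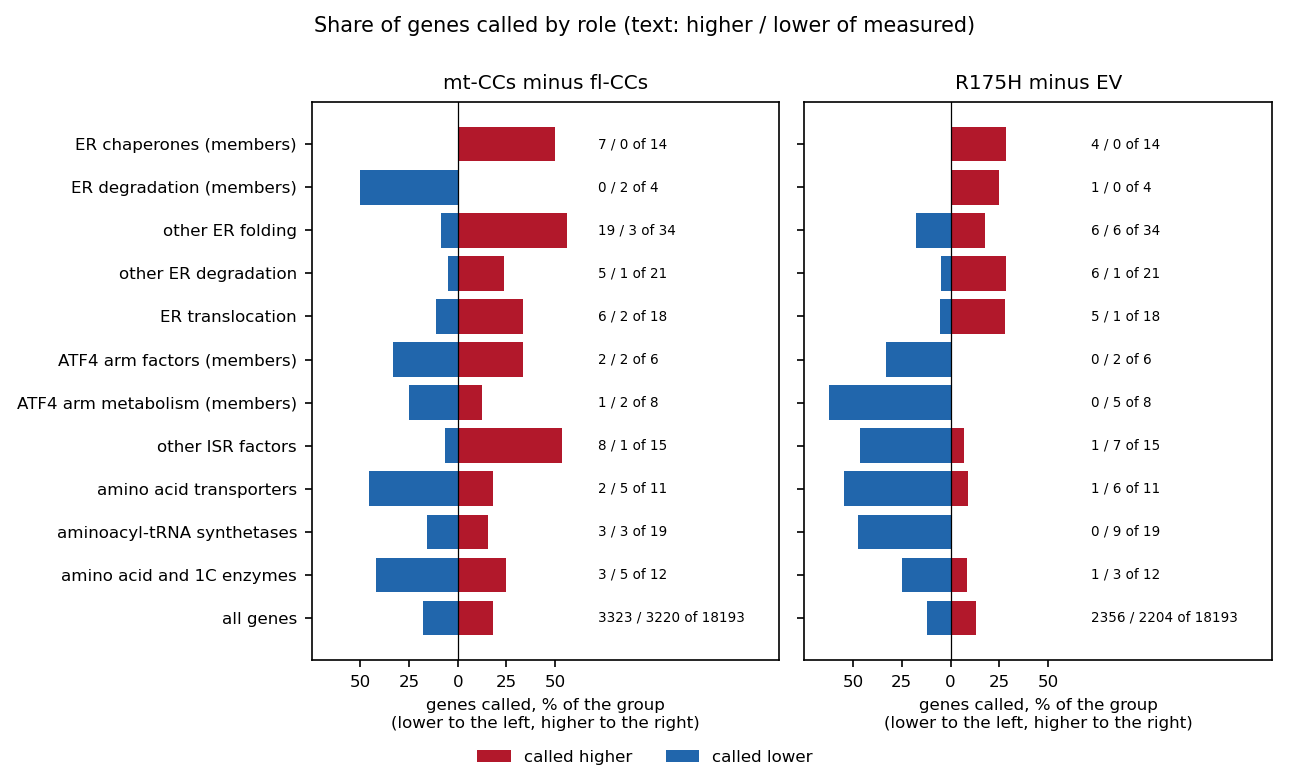
Share of genes called higher (right of 0) and lower (left of 0) by role, in percent of the measured genes of that role, for mt-CCs minus fl-CCs (left panel) and R175H minus EV (right panel), with the counts beside the bars. ER folding genes lean higher in mt-CCs (7 of 14 members and 19 of 34 others), and in R175H cells the called metabolic members, transporters and synthetases are mostly lower (5 of 8, 6 of 11 and 9 of 19 genes), as are 3 of 12 other amino acid and one-carbon (1C) enzymes. In mt-CCs 5 of 11 transporters and 5 of 12 of these enzymes are also lower.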

How the data were processed

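Affymetrix mouse GeneChip arrays were hybridized by the authors with biotin-labeled cDNA made from total RNA of cultured cells, with 12 arrays in 4 groups of 3. The deposited values are log2 values that the authors summarized and normalized by RMA, a tool their processing notes list with no version. RMA gave all arrays nearly the same distribution, so a shift shared by all genes cannot be seen, and small differences of bright genes may be compressed. From these values, 64 control probe sets were left out and 45037 were fitted with limma 3.58.1 in R 4.3.3 (group means over all 12 arrays, lmFit and eBayes). The threshold is that of the methods, which name Partek for testing. A gene was read from its probe set with the highest mean, and 932 probe sets with several symbols and 9160 with none were not assigned. The fit was tested on simulated arrays. Alternatives concerned the arrays in the fit, a replicate block, dim and unspecific probe sets, normalization, scaling, variance model, array weights and a fold limit of 1.

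The members, the lists and the promoter motifs were chosen with earlier results of these data known. All 37 members are named. Values on each array are given for the sensors, Atf4, Ddit3, members called in opposite directions, and in each arm the 4 largest called differences of mt-CCs against fl-CCs and the 3 of R175H against EV. Of the other lists, the 3 largest rises and falls in the first comparison and the 2 in the second are named, and of the synthetases, chosen after their values were seen, 5.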

Additional observations from a re-analysis of the deposited data

Results flagged for a closer look

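The difference of mt-CCs minus fl-CCs (endogenous mutant p53) was unlike that of R175H minus EV (transfected p53) in 15 members. This was by the test of the difference itself (limma, adjusted p of 0.05 or less). Of the members, 29.7% differed in the positive and 10.8% in the negative direction, beside 16.1% and 15.9% of all genes. In the chaperone and ERAD arm the first difference minus the second was 0.36 for Hsp90b1, 0.42 for Dnajb11, 0.49 for Dnajc3, 0.77 for Creld2, 0.71 for Manf, -1.17 for Herpud1 and -0.83 for Syvn1. Among the sensors it was 0.46 for Atf6, 1.46 for Ern1, -0.62 for Eif2ak3 and -0.91 for Eif2ak4. In the ATF4 arm it was 2.19 for Ddit3, 1.48 for Trib3, 0.57 for Phgdh and 0.79 for Shmt2. The endogenous and the transfected cells also differ in the tumor they came from, in the species of the mutant p53 and in G418, which cannot be told apart here. Each comparison is between single cell lines, and mt-CCs and fl-CCs come from different tumors. An effect of mutant p53 thus cannot be told apart from a difference between lines.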

How the results depend on the processing

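Many members differed by less than 0.5, near the threshold. Leaving out each array of the groups compared in turn gave 5 to 7 chaperone and ERAD genes higher for mt-CCs against fl-CCs (7 with all arrays), 1 to 2 lower (2), 2 to 4 ATF4 arm genes higher (3) and 1 to 4 lower (4). For R175H against EV it gave 3 to 4 chaperone and ERAD genes higher (5), 3 to 6 ATF4 arm genes lower (7), and 0 in the other directions. It gave 3 to 5 members called for EV against fl-CCs (6) and 10 to 19 for the difference of differences (15). With only the arrays of the groups compared, 1 ATF4 arm gene was lower in mt-CCs and 3 members were called for EV against fl-CCs. The replicate numbers did not pair the cultures (correlations from -0.09 to 0.06 over the 18 same-numbered pairs of arrays from different groups, and 2 of 12 arrays closest to their own number). With a replicate block, 1 chaperone and ERAD gene was lower in mt-CCs. One such gene was lower in R175H cells with the probe set of smallest adjusted p and with an intensity trend (1 each, Canx). Without unspecific probe sets, and likewise with arrays centred on bright probe sets, 1 chaperone and ERAD gene and 2 ATF4 arm genes were lower in mt-CCs, and array weights gave 2 ATF4 arm genes lower. With a log2 difference of at least 1 required, of the members in the arms only Ddit3 stayed called in mt-CCs (0 chaperone and ERAD genes higher, 0 lower, 1 ATF4 arm gene higher and 0 lower). For R175H against EV and for EV against fl-CCs 0 stayed, and 4 members in the difference of differences.

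The sign of some differences turned with the choice of probe set, but no called member was called the other way at another probe set. At the probe set of smallest adjusted p, Atf6 differed by 0.75 in mt-CCs against fl-CCs, Dnajc3 by 0.34 in EV against fl-CCs, and Edem1 and Atf4 by 0.51 and 0.64 in the difference of differences. At the brightest probe sets these differences were -0.02, -0.11, -0.08 and -0.39, all without a call. Without unspecific probe sets, all 3 calls of Syvn1 and that of Psat1 in mt-CCs were lost. The call of Shmt2 in R175H cells was lost too (-0.46 ± 0.17, adjusted p = 0.0761 in limma). Atf4 then differed by 0.02 without a call in mt-CCs against fl-CCs, where its brightest probe set was called at -0.46. In the difference of differences Atf4 then differed by 0.64. Phgdh has only unspecific probe sets and could not be read in this alternative. In the other alternatives no called member changed direction.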
